A study of Mus musculus with 6 samples.

Results

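The cell cycle genes described here are 44 named genes: the cyclins of the successive phases, the cyclin-dependent kinases (CDKs) they activate, the CDK inhibitors, the pocket proteins of the retinoblastoma family, the E2F transcription factors, the MCM helicase subunits and a set of mitotic and proliferation genes. A gene counted as measured where the annotation of the array paired a probe set with its symbol and with no other symbol. Of the 44 genes, 43 were measured, out of 19938 genes measured in this way on the whole array. Ccnb1, which encodes cyclin B1, had no such probe set. Where a gene had several, the probe set with the highest mean over the 6 arrays was used.

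The arrays profiled bone marrow-derived macrophages (BMMs), which grow from marrow under the cytokine M-CSF and develop into bone-resorbing osteoclasts once RANKL is given. Marrow was flushed from tibiae of mice aged 9 weeks, and the methods of the study name female C57BL animals. For 24 h, every culture received M-CSF at 100 ng/ml together with RANKL at 50 ng/ml. The vehicle group (3 arrays) had no other factor, and the rGDF11 group (3 arrays) also had recombinant GDF11, a ligand of the TGF-β family, at 100 ng/ml. The comparison asks what adding rGDF11 did to these genes in cells already exposed to RANKL. The labels call the samples biological replicates without saying if each had its own mouse or culture. The p-values therefore measure only the spread between these samples, which may be technical.

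A cell divides by passing through G1, S phase, G2 and mitosis in order. D-type cyclins with Cdk4 or Cdk6, and then E-type cyclins with Cdk2, phosphorylate the pocket proteins and so release the E2F factors, which switch on the genes of DNA replication, the MCM helicase among them. CDK inhibitors oppose these kinases. A-type cyclins, with Cdk2 or Cdk1, act in S phase and later, and B-type cyclins with Cdk1 carry the cell into mitosis. Macrophages divide in M-CSF, and osteoclast precursors are known to leave the cycle before they fuse.

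Levels are log2 values of the robust multichip average (RMA), the authors' normalization of all 6 arrays together, so that a difference of 1 would be a doubling. They were compared with limma's moderated test, and a gene was called higher or lower at a Benjamini-Hochberg adjusted p under 0.05 over all 23410 probe sets with a gene symbol. Differences are always rGDF11 minus vehicle, and an interval is the 95% confidence interval of that fit. A probe set's level also depends on its probes, so the levels of different genes are not compared. Brightness serves only to choose or filter probe sets, to name the brightest probe set of a marker list and to sum such a list. The array medians lay between 6.11 and 6.18, and no array stood apart: across probe sets r was 0.997 or 0.998 within a group and 0.989 to 0.991 between groups. With 3 arrays against 3, the smallest p that a two-sided exact permutation test on a single gene can give is 0.1, so no such test can pass.

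Addition of rGDF11 was followed by small changes in 10 of the 43 measured cell cycle genes. Cdc25a, E2f4, E2f7 and E2f8 rose, and Ccnd3, Cdc25b, Cdkn1b, Cdkn1c, Rbl2 and Ccng2 fell. The largest of the 10 changes, that of Ccng2, was 1.44-fold. The share called, 23.3% of the measured cell cycle genes, stood beside 16.6% of all 19938 genes. By direction, 9.30% of the cell cycle genes were higher against 7.49% of all genes, and 14.0% were lower against 9.13%. Of the 43, 41 were brighter than the median probe set. Of these 41, 10 were called (24.4%), a share below the 28.7% called among all 9918 genes of that brightness. At the threshold of the study's methods, a change of 1.5-fold with an unadjusted p under 0.01, 0 of the 43 passed, beside 5.19% of all genes. At an unadjusted p under 0.05 alone, 16 passed in limma (37.2%), beside 28.2% of all genes. Neither share of all genes was matched for brightness. The counts by group given below stand beside these same shares of all genes.

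The other 33 cell cycle genes did not pass. Their intervals ran between -0.32 and 0.46 at the widest, so a 1.5-fold change (0.58 on the log2 scale) lay outside the interval of every one of them, although smaller changes did not. Over all 43 genes, 23 differences were above 0 and 20 below. The median difference was 0.04, against 0.0255 for all genes, and the median size of a difference was 0.138, against 0.116. A difference smaller than 0.2 in size was found for 32 cell cycle genes (74.4%) and for 71.7% of all genes. The arrays of the groups did not overlap for 29 genes (67.4%), 15 with every rGDF11 array above every vehicle array and 14 below, whereas 33.7% of all genes did not overlap. This count was added after the values were seen, and its shares were not matched for brightness. The cell cycle genes' median SD within a single group was 0.05. For all probe sets tested, the median of the SD pooled over both groups was 0.11, which is not a like measure.

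**Figure D1:**
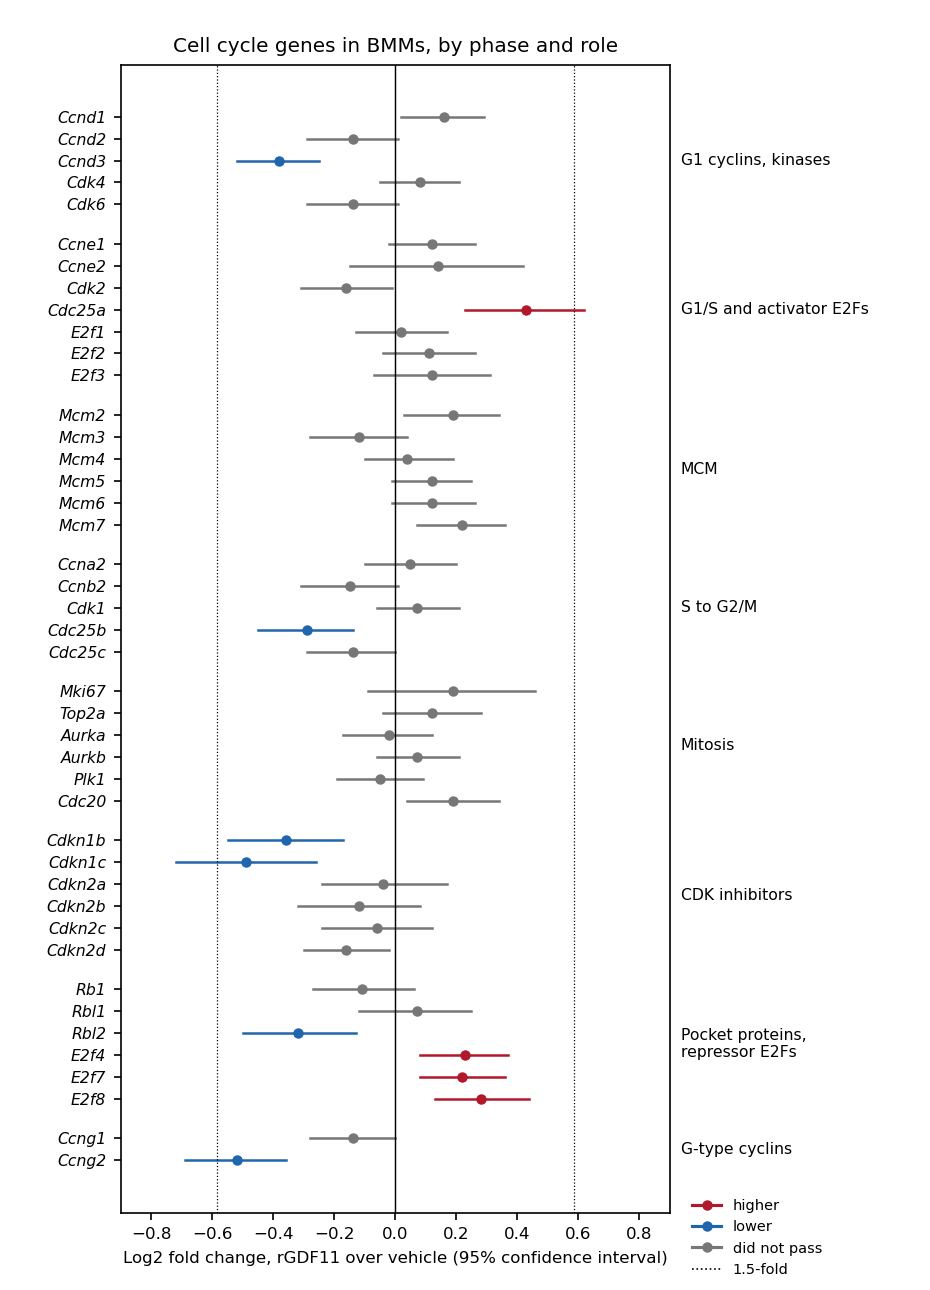
Log2 difference (rGDF11 minus vehicle) of each of the 43 measured cell cycle genes, grouped by phase and role, with points for the limma estimate, bars for its 95% confidence interval and dotted lines at 1.5-fold either way. The points of the 4 genes that were higher (red) and the 6 that were lower (blue) at an adjusted p under 0.05 lie inside the dotted lines, which only the bars of Cdc25a, Cdkn1c and Ccng2 cross, with Ccng2 at -0.52 and Cdc25a at 0.43 the farthest out in each direction.

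The number of calls depended on how the spread was modelled. With the spread allowed to follow the brightness of the probe set, 19 of the 43 genes were called, 10 higher and 9 lower, beside 21.0% of all probe sets tested. The genes added were Ccnd1, Cdc20, Mcm2, Mcm5, Mcm6 and Mcm7 on the higher side and Ccnb2, Ccng1 and Cdk6 on the lower side. With any 1 array left out, 4 to 7 genes were called (9.30% to 16.3%), beside 11.0% to 13.2% of all probe sets tested, where the full set of arrays gave 16.0%. Among bright probe sets alone, 16 of 41 were called (39.0%), beside 39.1% of all. Ccnd3 and Ccng2 were called in all 17 alternative settings, and no called gene changed direction in any of them.

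Promoter sequence is given for Ccnd3, Cdc25a and Ccng2, which were called, and for Mcm7 and Plk1, which were not. The 300-base RefSeq windows on GRCm38.p6 run from 250 bases before the annotated start to 50 bases after it. Cdkn1c had no window. A window was found for 33 of the 43 genes, 39 windows in all because some genes have several starts. Each was searched on both strands for the E2F-type words TTTCCCGC, TTTGGCGC and TTTCGCGC, for the cell cycle homology region (CHR) words TTTGAA and TTCGAA, which are known from genes of late phases, and for the CCAAT box. The FoxO-type word GTAAACA was added after the values were seen, because Ccng2 and several inhibitors are textbook FoxO targets. An E2F-type word stood in the windows of 12 of the 33 genes (36.4%), against 2.12% of the 27025 genes with a window. A CHR word stood in 15 (45.5% against 21.7%), a CCAAT box in 25 (75.8% against 41.1%) and the FoxO-type word in 2, Ccnd3 and Mcm7 (6.06% against 4.05%). The windows were richer in G and C than most, with a median of 59.3% against 52.7%. Of 98 matches, 1 pair of different motifs overlapped, an E2F-type word and a CCAAT box in Mcm7. A match describes the letters and is not evidence that a factor was bound.

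Among the G1 cyclins and kinases, 1 of 5 genes passed. Ccnd3, which encodes cyclin D3, read 9.25, 9.23 and 9.30 on the vehicle arrays and 8.91, 8.88 and 8.85 on the rGDF11 arrays. Every rGDF11 array was below every vehicle array, with a gap several times the spread within either group. It fell by 0.38 on the log2 scale (SE 0.06, interval -0.52 to -0.25, adjusted p = 0.00371 in limma), 1.30-fold lower. The other D-type cyclins are its close relatives and did not pass. Ccnd1, a target of growth factor signalling, read 11.45, 11.43 and 11.46 without and 11.57, 11.62 and 11.61 with rGDF11. Its arrays did not overlap either, but the difference of 0.16 (interval 0.02 to 0.29) had an adjusted p of 0.120 in limma; it passed in 3 of the 17 alternatives. Ccnd2 had a difference of -0.14 (adjusted p = 0.224), and of the kinases Cdk4 had 0.08 (0.448) and Cdk6 -0.14 (0.206), the values in brackets being limma's adjusted p. Averaged over the 5 genes and set against the vehicle mean, the rGDF11 arrays lay at -0.08, -0.07 and -0.10 and the vehicle arrays at -0.01, -0.02 and 0.03.

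Ccnd3 has starts at separate places of chromosome 17, and both windows are shown because it was the called gene of this group. The first, chr17:47504801-47505100 on the plus strand, has the FoxO-type word read from the other strand (capitals) at position -243, counted from the start. The second, chr17:47593217-47593516 on the same strand, has a CCAAT box (capitals) at -108. Neither has an E2F-type or a CHR word.
Ccnd3, the first start: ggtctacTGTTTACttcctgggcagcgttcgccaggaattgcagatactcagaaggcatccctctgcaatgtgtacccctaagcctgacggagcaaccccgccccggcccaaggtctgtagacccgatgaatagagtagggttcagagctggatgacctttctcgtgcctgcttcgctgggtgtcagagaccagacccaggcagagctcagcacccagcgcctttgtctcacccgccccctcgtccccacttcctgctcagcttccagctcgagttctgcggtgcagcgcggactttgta
Ccnd3, the second start: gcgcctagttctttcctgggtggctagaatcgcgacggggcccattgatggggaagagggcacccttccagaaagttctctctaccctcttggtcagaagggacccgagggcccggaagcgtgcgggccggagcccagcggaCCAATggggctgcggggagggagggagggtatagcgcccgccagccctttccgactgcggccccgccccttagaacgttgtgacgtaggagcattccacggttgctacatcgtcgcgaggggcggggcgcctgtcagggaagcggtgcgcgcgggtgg

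Of the 7 genes of the G1/S transition and the activator E2Fs, 1 rose and 6 differences were above 0. Cdc25a encodes the phosphatase that removes inhibitory phosphates from Cdk2 and Cdk1. It read 8.94, 8.98 and 8.98 on the vehicle arrays and 9.52, 9.42 and 9.23 on the rGDF11 arrays, so that all rGDF11 arrays were higher but differed more among themselves. The rise was 0.43 (SE 0.08, interval 0.23 to 0.62, adjusted p = 0.0115 in limma), 1.34-fold. Of the 17 alternative settings, it was lost only with the t-test of the methods (adjusted p = 0.0588). Cdk2 itself did not pass and lay on the other side of 0, at -0.16 (adjusted p = 0.152 in limma).

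The E-type cyclins, which activate Cdk2, did not pass. Ccne1 read 9.13, 9.14 and 9.03 against 9.23, 9.20 and 9.23, a difference of 0.12 (interval -0.02 to 0.26, adjusted p = 0.272 in limma). Ccne2 varied more between replicates, with 9.16, 9.32 and 8.96 against 9.33, 9.45 and 9.08, and overlapped between the groups (0.14, adjusted p = 0.540). The activator E2Fs, which turn on the replication genes, had differences of 0.02 for E2f1, 0.11 for E2f2 and 0.12 for E2f3, with adjusted p of 0.912, 0.346 and 0.420. The second probe set of E2f3 gave 0.03 (adjusted p = 0.850). E2f1 was the smallest of these differences, and its sign turned when vehicle array 1 or rGDF11 array 1 was left out (-0.01 and -0.0025).

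An E2F-type word was found for 4 of the 6 genes of this group that had a window, namely Cdc25a, Cdk2, E2f2 and E2f3. The window of Cdc25a, chr9:109875329-109875628 on the plus strand, is shown as that of the called driver with the largest change. Capitals mark CCAAT boxes read from the other strand at -131 and -81 and the E2F-type word TTTGGCGC at -67.
Cdc25a: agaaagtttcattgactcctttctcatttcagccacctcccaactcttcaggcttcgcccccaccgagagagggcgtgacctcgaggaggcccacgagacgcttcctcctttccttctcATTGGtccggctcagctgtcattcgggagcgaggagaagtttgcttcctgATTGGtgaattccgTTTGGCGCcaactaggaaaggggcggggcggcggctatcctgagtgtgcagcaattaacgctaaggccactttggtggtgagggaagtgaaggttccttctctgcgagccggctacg

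The MCM genes encode the 6 subunits of the helicase that unwinds replication origins, and 0 of the 6 passed in limma, while 2 had an unadjusted p under 0.05. Mcm2 read 9.61, 9.71 and 9.77 without and 9.91, 9.83 and 9.91 with rGDF11, a difference of 0.19 (interval 0.03 to 0.34, adjusted p = 0.116). Mcm7 came closest to a call, with 10.93, 10.93 and 10.94 against 11.13, 11.09 and 11.23. All its rGDF11 arrays were above all vehicle arrays, and the difference of 0.22 (interval 0.07 to 0.36) had an adjusted p of 0.0543 in limma, just outside the threshold. Mcm5 and Mcm6 each had 0.12 (adjusted p = 0.233 and 0.235), Mcm4 had 0.04 (0.717) and Mcm3 had -0.12 (0.313). As a group the MCM genes stood at a small and even distance from the vehicle arrays, with means over the 6 genes of 0.08, 0.10 and 0.09 on the rGDF11 arrays against -0.02, 0.01 and 0.02. The methods' t-test called Mcm5 and Mcm7, and the brightness-dependent fit called Mcm2, Mcm5, Mcm6 and Mcm7.

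Of the 5 MCM genes with a window, Mcm3, Mcm5, Mcm6 and Mcm7 had an E2F-type word and all 5 had a CCAAT box. Mcm7 has another window, chr5:138171217-138171516, not shown, with a CCAAT box from the other strand at -47 and the FoxO-type word at 33. Its window at chr5:138171834-138172133, on the minus strand, is shown because it holds several of the words together. This window was picked after the values were seen. Capitals mark, from left to right, the CHR word TTCGAA at -173, the E2F-type word read from the other strand at -165, CCAAT boxes from the other strand at -72 and -26, and the E2F-type word at 17, which overlaps the CCAAT box at 24.
Mcm7: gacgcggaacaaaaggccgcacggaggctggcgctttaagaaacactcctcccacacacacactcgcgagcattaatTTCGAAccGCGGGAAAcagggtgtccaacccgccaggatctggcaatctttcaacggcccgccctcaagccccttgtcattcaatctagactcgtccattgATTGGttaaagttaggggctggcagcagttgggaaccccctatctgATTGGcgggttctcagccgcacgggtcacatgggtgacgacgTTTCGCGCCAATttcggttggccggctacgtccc

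Among the genes that act from S phase to the entry into mitosis, 1 of the 5 measured fell. Cdc25b, the phosphatase that starts the activation of Cdk1 at the G2/M border, read 10.30, 10.28 and 10.42 on the vehicle arrays and 10.07, 9.99 and 10.06 on the rGDF11 arrays. The groups did not overlap, and the level fell by 0.29 (SE 0.07, interval -0.45 to -0.14, adjusted p = 0.0207 in limma), 1.23-fold lower. The call was lost without vehicle array 3 (adjusted p = 0.0710) and without rGDF11 array 1 (0.0604), 2 (0.0657) or 3 (0.0519). Cdc25a and Cdc25b thus moved in opposite directions, and Cdc25c, the remaining member of this phosphatase family, had a difference of -0.14 (adjusted p = 0.186).

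The cyclins and the kinase of this stage did not pass. Ccna2, which encodes cyclin A2, read 11.85, 11.92 and 11.79 against 11.86, 11.94 and 11.91, and the groups overlapped (0.05, interval -0.10 to 0.20, adjusted p = 0.659 in limma). Ccnb2, a B-type cyclin, had a difference of -0.15 (adjusted p = 0.199) and Cdk1 one of 0.07 (0.494). Over the 5 genes the rGDF11 arrays averaged -0.10, -0.08 and -0.10 relative to the vehicle mean, and the vehicle arrays -0.02, 0.03 and -0.01.

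None of the 6 genes of mitosis and proliferation passed in limma, and 1 had an unadjusted p under 0.05. Mki67, which encodes the proliferation antigen Ki-67, read 10.74, 10.61 and 10.54 on the vehicle arrays and 10.84, 11.03 and 10.58 on the rGDF11 arrays. The groups overlapped, and the interval of the difference of 0.19 ran from -0.09 to 0.46 (adjusted p = 0.375). Cdc20, an activator of the anaphase-promoting complex, had the same difference with less spread, from 9.50, 9.60 and 9.55 to 9.68, 9.72 and 9.81 (interval 0.04 to 0.34, adjusted p = 0.102), and its arrays did not overlap. It passed with quantile normalization (adjusted p = 0.0455), among bright probe sets alone (0.0290) and with the brightness-dependent spread (0.0221).

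The other mitotic genes had smaller differences. Top2a, the topoisomerase that untangles sister chromosomes, had 0.12 (adjusted p = 0.343 in limma), and its dimmer probe set 0.05 (adjusted p = 0.811). The kinases Aurka, Aurkb and Plk1 had -0.02, 0.07 and -0.05, with adjusted p of 0.857, 0.475 and 0.659, and every interval between -0.19 and 0.21. The sign of Aurka turned with quantile normalization and without vehicle array 2 (0.01 in each case). A CHR word stood in the windows of all 5 mitotic genes that had one, Aurka, Cdc20, Mki67, Plk1 and Top2a. It also stood in those of Ccnb2, Cdc25b and Cdk1. Genes of other groups had a CHR word too, namely E2f2, E2f3, Mcm2, Mcm7, Cdkn2b, Rbl2 and E2f8. No mitotic gene had an E2F-type word, but Cdk1 did. The window of Plk1, chr7:122159185-122159484 on the plus strand, is shown as an example picked after the values were seen, with the CCAAT box at -14 and the CHR word TTTGAA at 31 in capitals.
Plk1: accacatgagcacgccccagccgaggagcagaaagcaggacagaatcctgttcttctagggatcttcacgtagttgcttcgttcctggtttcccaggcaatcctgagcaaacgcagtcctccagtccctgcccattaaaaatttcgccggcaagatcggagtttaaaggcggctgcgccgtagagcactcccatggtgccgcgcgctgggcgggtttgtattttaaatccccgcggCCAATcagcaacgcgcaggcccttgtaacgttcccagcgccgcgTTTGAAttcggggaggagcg

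All 6 measured CDK inhibitors had differences below 0, and 2 of them fell, beside 9.13% of all genes called lower. Both belong to the Cip/Kip family, which binds cyclin-CDK complexes of several kinds. Cdkn1c, which encodes p57, read 6.88, 6.69 and 6.87 on the vehicle arrays and 6.31, 6.17 and 6.49 on the rGDF11 arrays. The groups did not overlap, and the level fell by 0.49 (SE 0.10, interval -0.72 to -0.26, adjusted p = 0.0122 in limma), 1.41-fold lower. The call was lost without vehicle array 3 (adjusted p = 0.0560) and with the methods' t-test (0.0744). Cdkn1b, which encodes p27, read 9.19, 9.39 and 9.42 against 9.00, 9.02 and 8.92. The lowest vehicle array remained above the highest rGDF11 array, and the fall was 0.36 (SE 0.08, interval -0.55 to -0.17, adjusted p = 0.0211 in limma), 1.28-fold lower. Its second and dimmer probe set lay at -0.46 and did not pass (adjusted p = 0.118). Without vehicle array 2 the adjusted p of Cdkn1b was 0.0722, without vehicle array 3 0.0807, and without rGDF11 array 1 or 3 0.0633 and 0.0718; with the methods' t-test it was 0.0750, and 0.0522 with every row of the table tested.

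The INK4 inhibitors, which act on Cdk4 and Cdk6 alone, did not pass. Cdkn2d read 7.75, 7.82 and 7.81 against 7.62, 7.61 and 7.67. Its arrays did not overlap, and the difference was -0.16 (interval -0.30 to -0.02, adjusted p = 0.118 in limma). Cdkn2c had -0.06 (adjusted p = 0.702), Cdkn2b -0.12 (0.454) and Cdkn2a -0.04 (0.843). Cdkn2a and Cdkn2b were dimmer than the median probe set, and RMA values have no true 0 that would show whether a dim gene is expressed. The sign of Cdkn2a turned without vehicle array 1 (0.03) and without rGDF11 array 1 (0.02). Over the 6 inhibitors the rGDF11 arrays averaged -0.22, -0.24 and -0.15 relative to the vehicle mean, and the vehicle arrays 0.01, 0.00 and -0.01. The called Cdkn1c (-0.49) and Cdkn1b (-0.36) had by far the largest differences in this average. The probe set of Cdkn1a, which encodes p21, carries more than 1 symbol in the annotation, so no value is given for it.

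Pocket proteins and repressor E2Fs restrain transcription of cell cycle genes, and 4 of the 6 passed, in both directions. Beside this count, 16.6% of all genes were called, and 28.7% of genes brighter than the median probe set. Rbl2, which encodes p130, the pocket protein typical of resting cells, read 8.35, 8.57 and 8.43 on the vehicle arrays and 8.20, 8.16 and 8.05 on the rGDF11 arrays. The groups did not overlap, and the level fell by 0.32 (SE 0.08, interval -0.50 to -0.13, adjusted p = 0.0312 in limma), 1.25-fold lower. It did not pass without vehicle array 2 (adjusted p = 0.0942) or 3 (0.0864), nor without rGDF11 array 1 (0.0620), 2 (0.0650) or 3 (0.0988), nor with the methods' t-test (0.0879) or over all rows of the table (0.0695). Rb1, the retinoblastoma gene itself, read 9.49, 9.54 and 9.51 against 9.44, 9.49 and 9.29 and did not pass (-0.11, interval -0.27 to 0.06, adjusted p = 0.400). Rbl1, which encodes p107, had a difference of 0.07 (adjusted p = 0.655).

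In this group, the repressor E2Fs E2f4, E2f7 and E2f8 all rose, by less than 1.5-fold. E2f5 and E2f6, read with the further genes below, had differences of -0.04 and -0.17. Neither passed (adjusted p = 0.794 and 0.180 in limma), although all rGDF11 arrays of E2f6 lay below all its vehicle arrays. E2f8, an atypical E2F that lowers E2F target transcription late in the cycle, read 9.43, 9.44 and 9.57 without and 9.81, 9.78 and 9.70 with rGDF11. The groups did not overlap, and it rose by 0.28 (SE 0.07, interval 0.13 to 0.44, adjusted p = 0.0269 in limma), 1.22-fold. E2f7, its partner, read 9.03, 9.00 and 9.08 against 9.28, 9.21 and 9.27, again without overlap (0.22, SE 0.06, interval 0.08 to 0.36, adjusted p = 0.0470), 1.16-fold. E2f4, which represses together with p130 and p107, read 8.94, 8.91 and 9.03 against 9.20, 9.17 and 9.20 (0.23, SE 0.06, interval 0.08 to 0.37, adjusted p = 0.0431), 1.17-fold, and its arrays did not overlap. These 3 calls were close to the threshold. Leaving out any 1 array ended that of E2f4 (adjusted p of 0.0536 to 0.136) and that of E2f7 (0.0730 to 0.153), and E2f8 was lost without vehicle array 1 (0.0806) or 2 (0.0886) and without rGDF11 array 1 (0.103) or 2 (0.0727). All 3 also missed the threshold when each array was centred on its median, with adjusted p of 0.0863 for E2f4, 0.0889 for E2f7 and 0.0523 for E2f8.

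**Figure D2:**
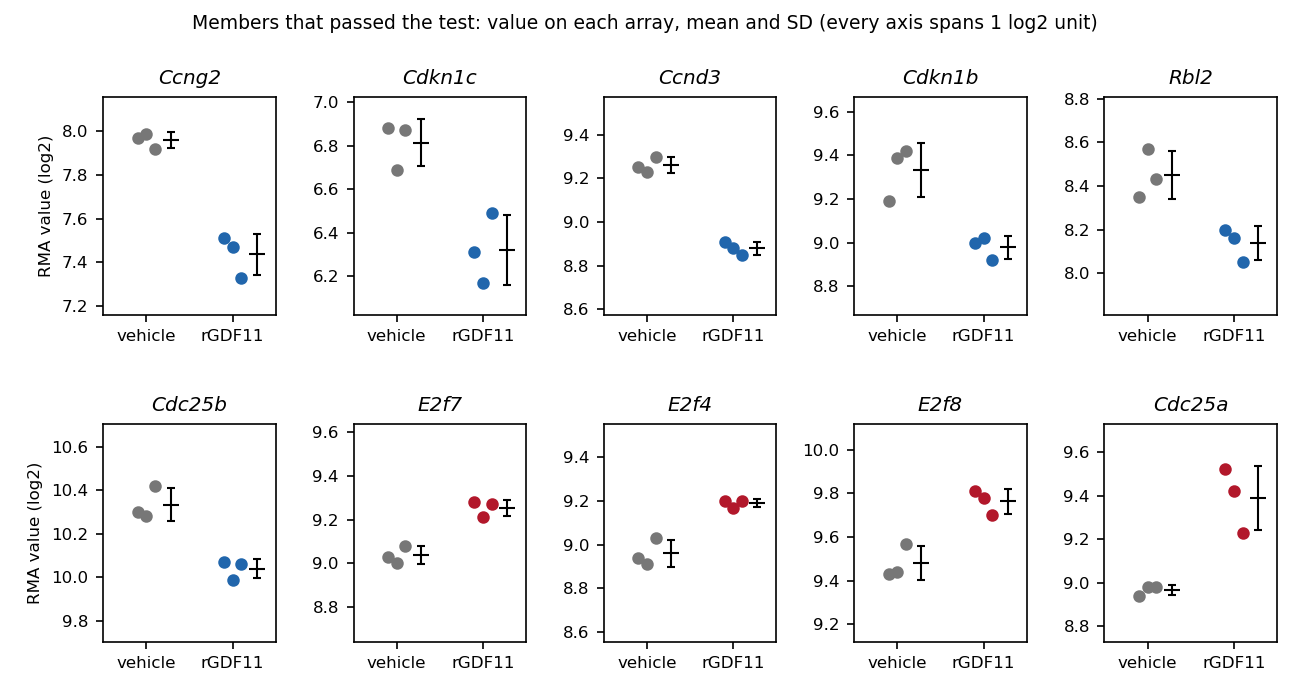
RMA log2 value on each array for the 10 cell cycle genes that passed, with grey points for vehicle arrays, coloured points for rGDF11 arrays (blue lower, red higher) and bars for the mean and SD of 3 arrays; every axis spans 1 log2 unit but starts at its own level. The panels were picked by the test on these same arrays, so the lack of overlap in all 10 adds nothing to it. Of all genes, 33.7% did not overlap. The widest separation is in Ccng2 (7.97, 7.99 and 7.92 against 7.51, 7.47 and 7.33).

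The G-type cyclins have no CDK role like that of the other cyclins and are known from growth arrest and stress responses. Ccng2, which encodes cyclin G2, a gene high in resting cells, read 7.97, 7.99 and 7.92 on the vehicle arrays and 7.51, 7.47 and 7.33 on the rGDF11 arrays. The groups were well separated, and the level fell by 0.52 (SE 0.07, interval -0.69 to -0.36, adjusted p = 0.00185 in limma), 1.44-fold lower. Ccng1, a target of p53, read 11.83, 11.91 and 11.85 against 11.76, 11.72 and 11.70. Its arrays did not overlap, but the difference of -0.14 (interval -0.28 to 0.00) did not pass (adjusted p = 0.183). The window of Ccng2, chr5:93267323-93267622 on the plus strand, is shown as that of the gene with the largest change; none of the words searched was in these letters, so it has no capitals.
Ccng2: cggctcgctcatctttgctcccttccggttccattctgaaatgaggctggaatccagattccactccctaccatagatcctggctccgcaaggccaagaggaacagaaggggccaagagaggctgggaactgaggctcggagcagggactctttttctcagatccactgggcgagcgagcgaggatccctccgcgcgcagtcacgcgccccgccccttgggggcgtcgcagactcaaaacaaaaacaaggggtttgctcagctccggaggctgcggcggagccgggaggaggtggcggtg

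With the genes of all phases pooled as drivers, 1 of 29 measured genes rose, 2 fell and 26 did not pass, with 19 differences above 0, 10 below and a median of 0.07. The 12 restraints, the CDK inhibitors with the pocket proteins and repressor E2Fs, held 3 that rose, 3 that fell and 6 that did not pass, with a median of -0.08. Beside these counts, 16.6% of all genes were called, and 28.7% of genes brighter than the median probe set. The 3 restraints that rose were all repressor E2Fs, and the 3 that fell were Cdkn1b, Cdkn1c and Rbl2. Averaged over all drivers, the rGDF11 arrays lay at 0.04, 0.06 and 0.00 relative to the vehicle mean, overlapping the vehicle arrays at -0.02, 0.02 and 0.01. Over the restraints they lay at -0.06, -0.08 and -0.07, against 0.00 on every vehicle array. By group, the medians of the differences were -0.14 for the G1 cyclins and kinases, 0.12 for the G1/S genes, 0.12 for the MCM genes, -0.14 for the genes of S phase to G2/M, 0.09 for the mitotic genes, -0.14 for the CDK inhibitors, 0.14 for the pocket proteins and repressor E2Fs and -0.33 for the G-type cyclins. These averages are descriptions, since the genes were chosen with earlier results of these data known.

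**Figure D3:**
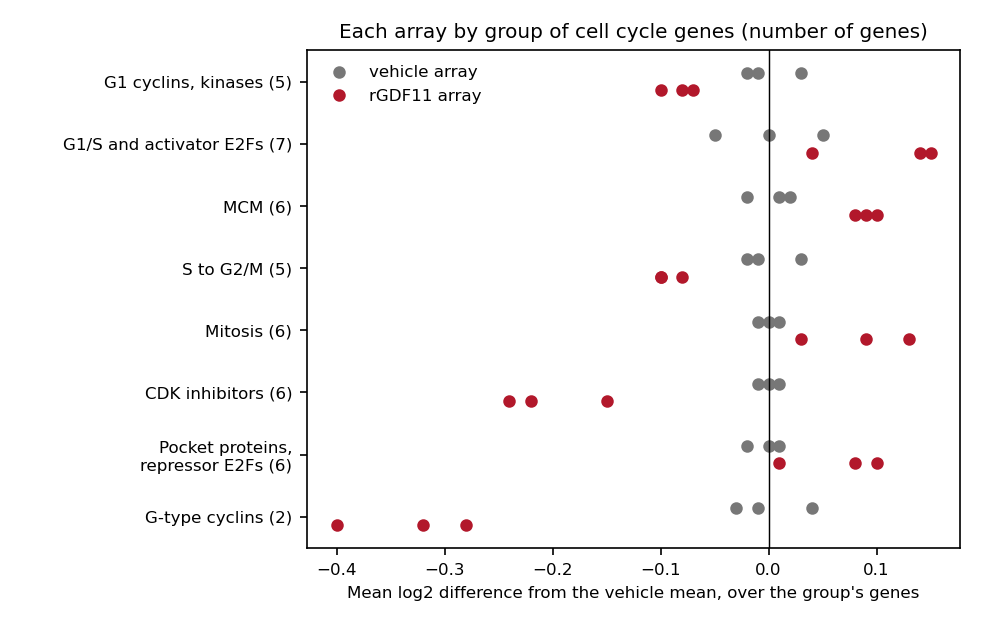
Mean log2 difference from the vehicle mean over the genes of each group, with 1 point per array (grey vehicle, red rGDF11) and the number of genes in brackets. The rGDF11 arrays lie wholly below the vehicle arrays for the G-type cyclins (-0.28, -0.32 and -0.40), the CDK inhibitors (-0.22, -0.24 and -0.15), the G1 genes and those of S phase to G2/M, and wholly above them for the MCM (0.08, 0.10 and 0.09) and mitotic genes (0.09, 0.13 and 0.03), while the other groups touch or overlap.

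In the 8 called genes with a promoter window, an E2F-type word stood in 2 of 3 that rose, Cdc25a and E2f7, and in 0 of 5 that fell. A CCAAT box stood in all 3 that rose and in 3 that fell, Ccnd3, Cdc25b and Cdkn1b. With so few windows these are counts only.

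Further genes of the cell cycle, taken from textbook lists that hold none of the 44 named genes, were read in the same fit. Of 131 symbols listed, with Skp1 also listed as Skp1a, 127 were measured and 21 were called (16.5%), 12 higher and 9 lower. All 127 were brighter than the median probe set, and the share stood beside 16.6% of all genes and 28.7% of genes of that brightness. The median difference was 0.01 and the median size 0.110. In the list of 29 spindle, kinetochore and cytokinesis genes, 0 passed in limma (2 at an unadjusted p under 0.05), and the differences ran from -0.18 to 0.22. Of 29 genes of the replication fork and nucleotide supply, Dut, which keeps uracil out of DNA, rose by 0.32 and Rfc1, a clamp loader subunit, fell by 0.30. Of 17 genes of origin licensing and firing, Orc2 rose by 0.37 and Cdc7, a kinase that fires origins, by 0.35, and Mcm10 fell by 0.30.

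Of 21 genes of the ubiquitin ligases and CDK subunits, Mnat1, a subunit of the CDK-activating kinase, rose by 0.38, Espl1 (separase) rose by 0.36 and Pttg1 (securin), which holds separase inactive, fell by 0.38. Atr, a checkpoint kinase, was the 1 called gene of 9 in its list and rose by 0.52 (adjusted p = 0.00844 in limma). Among 10 transcription factors of the cycle, Tfdp2, an E2F partner, rose by 0.38 and Mybl2 rose most. Mybl2, which encodes B-Myb, a direct E2F target that drives late cell cycle genes, read 8.43, 8.49 and 8.48 on the vehicle arrays and 9.07, 9.08 and 9.13 on the rGDF11 arrays. The groups were far apart for their spread, and the rise of 0.63 (SE 0.06, interval 0.49 to 0.76, adjusted p = 0.000315 in limma) was 1.54-fold. Foxm1, which acts with B-Myb on mitotic genes, had a difference of -0.02 (interval -0.17 to 0.12, adjusted p = 0.866); its name was added after the values were seen.

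The list of 12 arrest and quiescence genes held the largest changes of any cell cycle list here, with 4 that rose and 6 that fell. Over all genes 16.6% were called, and 28.7% of genes brighter than the median probe set. Plk2, a polo-like kinase induced in early G1 and by p53, read 7.93, 7.94 and 7.86 without and 6.23, 6.15 and 6.12 with rGDF11. It fell by 1.74 (interval -1.89 to -1.60, adjusted p = 5.64e-06 in limma), 3.35-fold lower. Plk3, a stress-responsive relative, went the other way, from 7.01, 6.99 and 7.07 to 8.75, 8.63 and 8.65, a rise of 1.66 (interval 1.51 to 1.80, adjusted p = 7.53e-06) or 3.15-fold. Gadd45b, a stress and growth arrest gene, fell by 0.70 (adjusted p = 0.000541), 1.63-fold lower, while Gadd45a and Gadd45g rose by 0.27 and 0.38. The antiproliferative genes Btg2, Tob1 and Btg1 fell by 0.60, 0.49 and 0.33, whereas Tob2 did not pass (0.01, adjusted p = 0.968 in limma). Of the FoxO factors, which turn on Cdkn1b, Rbl2 and Ccng2 in other settings, Foxo3 fell by 0.32 and Foxo1 rose by 0.37. Across the 17 alternatives none of the 21 called genes of these lists changed direction, and Plk2, Plk3, Mybl2, Gadd45b, Gadd45g, Btg1, Btg2, Tob1 and Pttg1 were called in every one. The other 12 missed the threshold in at least 1 setting, with adjusted p of at most 0.126, for Dut with the methods' t-test.

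**Figure D4:**
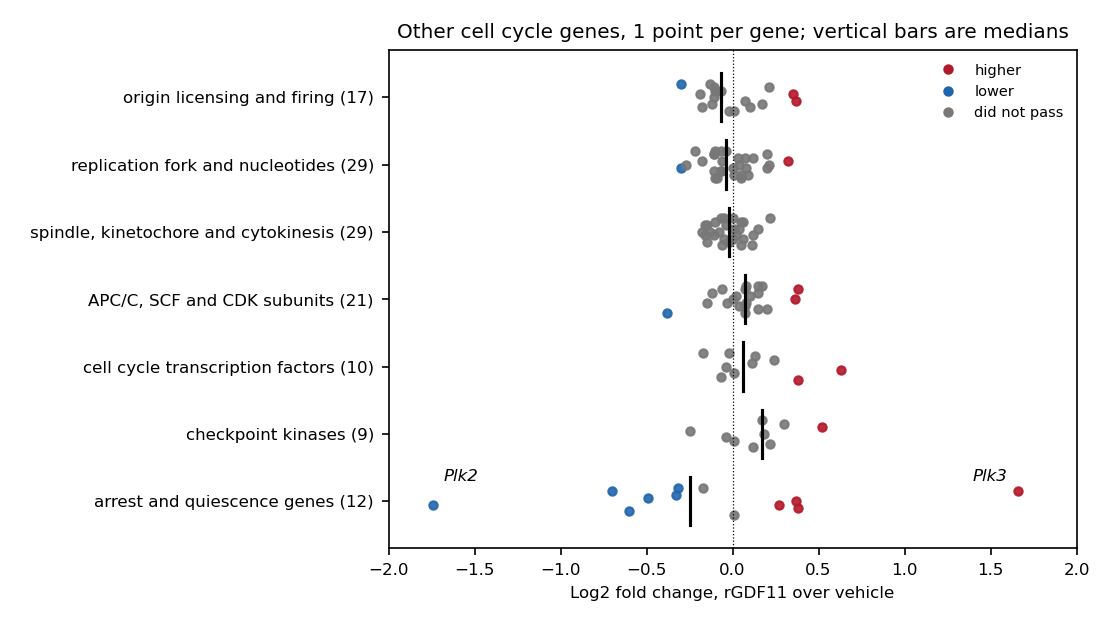
Log2 difference (rGDF11 minus vehicle) of 127 further cell cycle genes, 1 point per gene, by list with the number of genes in brackets; red and blue points passed at an adjusted p under 0.05, grey points did not, and vertical bars are medians. The spindle list holds no coloured point, and Plk2 (-1.74) and Plk3 (1.66) of the arrest and quiescence list lie far outside all other genes.

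Markers of cell types moved as well, and their counts stand beside 16.6% of all genes called. In these bulk samples a change in the share of a cell type and a change of RNA per cell cannot be told apart, and the part of the markers below in the cell cycle results was not tested. Of 8 macrophage markers, brightest probe set Lyz2, 5 fell (Cd68, Adgre1, Itgam, Fcgr1 and Cd14, by 0.28, 0.51, 0.24, 1.41 and 1.06), and the summed level of all 8 (as log2, a sum in which each gene weighs by its probes' brightness) went from 14.82 to 14.85 on the vehicle arrays to 14.52 to 14.60 on the rGDF11 arrays. Csf1r, Lyz2 and Mertk did not pass (-0.08, -0.02 and 0.06). Of 7 markers of haematopoietic progenitors, which divide, 3 rose (Cd34 by 2.07, Gata2 by 0.44, Flt3 by 0.25), with a summed level of 9.19 to 9.21 against 10.46 to 10.51 (brightest probe set Cd34). Kit, Myb, Meis1 and Hoxa9 did not pass (-0.26, 0.06, -0.03 and 0.11). Of 6 stromal and osteoblast markers, 4 rose (Col1a1, Col1a2, Alpl and Pdgfrb, by 0.63, 0.65, 0.44 and 0.48; summed level 8.69 to 8.81 against 9.22 to 9.40). Among 8 neutrophil markers, brightest probe set Elane, S100a8 rose by 0.71 (9.09 to 9.16 against 9.31 to 9.44), among 4 erythroid markers, brightest probe set Slc4a1, Alas2 rose by 0.23 (7.13 to 7.22 against 7.13 to 7.44), and among 3 megakaryocyte markers Pf4 fell by 1.10 (9.67 to 9.84 against 8.72 to 8.97). In limma, 0 markers passed of 4 for B cells (brightest Vpreb1; summed level 6.39 to 6.53 against 6.47 to 6.62), 4 for T and NK cells (Cd3e; 6.67 to 6.83 against 6.80 to 6.98), 5 for mast cells (Mcpt8; 6.12 to 6.26 against 6.24 to 6.30) and 5 for dendritic cells (Zbtb46; 7.33 to 7.49 against 7.56 to 7.90). In at least 1 alternative setting the calls of Cd68, Itgam, Flt3, Alas2 and Col1a1 were lost, with adjusted p up to 0.0552, 0.108, 0.132, 0.152 and 0.0598. Flt3, Alas2 and Pdgfrb were dimmer than the median probe set, so their values may not show expression.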

How the data were processed

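Affymetrix Mouse Gene 1.0 ST arrays read total RNA of 6 samples, grouped by their treatment labels. The deposited values are on the log2 scale: the authors ran RMA, which corrects background, normalizes the arrays together and sums probes into probe sets, and can compress small differences. The submitters' processing notes name Transcriptome Analysis Console 3.0. For Expression Console and the annotation, no version was found in the labels or the paper. Of 35556 rows, 21789 carried 1 symbol, 1621 several and 12146 none. The 23410 rows with a symbol were fitted by limma 3.58.1 (R 4.3.3; no trend and no covariate, 3.67 prior and 4 residual degrees of freedom), a fit first tested on simulated data. The number of arrays limits the precision. All 43 measured genes matched RefSeq by Entrez identifier. Genes, lists and tests were chosen with earlier results of these data known. Every cell cycle gene is named, with per-array values for called genes, group heads and a few others. Other lists are named mainly by their called genes, and markers also by the brightest. Alternatives covered the rows tested, dim probe sets, normalization, spread, the methods' t-test, a replicate block, probe sets per gene, thresholds and each array left out.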

Additional observations from a re-analysis of the deposited data

How the results depend on the processing

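Over the 43 genes and their alternatives, 654 values kept their direction and their side of the threshold, 22 passed it newly, 47 no longer passed and 6 changed sign, all 6 in genes that had not passed: Aurka (0.01 with quantile normalization and without vehicle array 2; -0.05 to 0.01 without 1 array), E2f1 (-0.01 and -0.0025 without vehicle array 1 and rGDF11 array 1; -0.01 to 0.06) and Cdkn2a (0.03 and 0.02 without the same arrays; -0.09 to 0.03). The 4 higher and 6 lower calls became 0 and 2 at an adjusted p under 0.01, 1 and 4 over all rows of the table (11.6% of the genes, beside 9.40% of all probe sets), 1 and 6 with arrays centred (16.3% beside 14.6%), 8 and 8 among bright probe sets alone (39.0% beside 39.1%), 10 and 9 with an intensity trend (44.2% beside 21.0%), and 15 and 14 by arrays that do not overlap (67.4% beside 33.7% of all genes). Without 1 array, 1 to 2 were higher and 2 to 6 lower (9.30% to 16.3% beside 11.0% to 13.2%). The 1.5-fold threshold gave 0 in each direction, and 1.2-fold gave 2 higher and 6 lower. The cause of these shifts was not tested; the choice of rows changed both the adjustment and the pooled spread (2.30 prior degrees of freedom over all rows and 3.99 among bright ones, against 3.67). The median of the CDK inhibitors was -0.26 among bright probe sets, which leaves out Cdkn2a and Cdkn2b, and -0.18 to -0.11 without 1 array. Quantile normalization gave medians of -0.08 for the G1 genes and 0.16 for the MCM genes. Without 1 array the medians were -0.15 to -0.11 for the G1 genes and -0.16 to -0.12 for those of S phase to G2/M. In the further lists, run under these settings after the data were seen, the 12 higher and 9 lower genes became 6 and 9 over all rows (11.8% beside 9.40% of all probe sets), 23 and 16 among bright probe sets (30.7% beside 39.1%), 20 and 9 with quantile normalization (22.8% beside 17.4%) and 22 and 16 with an intensity trend (29.9% beside 21.0%), and 6 to 10 higher and 6 to 9 lower without 1 array (9.45% to 12.6% beside 11.0% to 13.2%).

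The labels number the replicates of both groups. The deviations of same-numbered arrays from their group means correlated at r = 0.06, 0.33 and 0.00 over all tested probe sets, where rGDF11 array 3 correlated best with vehicle array 1 (0.27), and at -0.11, 0.48 and 0.36 over the 43 genes, where array 3 correlated best with its own number and rGDF11 array 1 with vehicle array 2 (0.18). The numbers were not taken as pairs, since not every pair correlated above 0.1. With the number as a replicate block, 1 gene was higher, Cdc25a, and 6 were lower (16.3% beside 15.5% of all probe sets). The precision of these results is limited by 3 arrays in each group.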
